A study of Mus musculus with 8 samples.

Results

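The liver is the main site where surplus amino acids are broken down, and 41 genes of that work, from the urea cycle to the catabolism of single amino acids, were followed in mouse liver. They were taken by gene symbol from the 24547 genes of the deposited count table, and all 41 were found. The tested group was 4 liver libraries from ICR mice, an outbred strain, given Psoraleae Fructus, a fruit used in Chinese medicine, as a high-dose decoction into the stomach for 30 days, and is called treated below. It was set against 4 control libraries of the same strain, and the protocol names saline beside the decoction. No allele, Cre, sex, age, dose by mass or hour of collection is given in the labels, and no pooling of animals is stated. The animal behind each library is not stated either, and the tests therefore rest on variation among libraries, which may be partly technical.

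Amino groups leave amino acids mainly through aminotransferases, which pass them to glutamate, and glutamate dehydrogenase then frees ammonia. The urea cycle, begun in hepatocyte mitochondria and strongest around the portal vein, turns that ammonia into urea. The carbon skeletons go on through separate routes for tyrosine, tryptophan, glycine, proline, branched-chain amino acids, lysine and histidine, and many of these enzymes are known to follow glucagon, glucocorticoids, feeding and the time of day.

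Library totals ran from 16398729 to 20159132 counts in treated and from 15864399 to 19153845 counts in control libraries. Defining hepatocyte markers were abundant in every library, their 12 genes summing to between 152700 and 173400 CPM in treated and between 133300 and 178800 CPM in control libraries (CPM here is the count scaled to a common library size with TMM factors). Control libraries 1, 2 and 4 stood apart in different ways. Control 1 held 631.9 CPM of Igfbp1, an insulin-repressed and fasting-induced gene, against 9.97 to 252.9 CPM in the other controls. Treated libraries held 31.95 to 53.4 CPM of Igfbp1, below controls 1 to 3 and above control 4. In control 4, Scd1, a desaturase of fat synthesis, stood at 13700 CPM, against 209.2 to 415.4 CPM in the other controls. MHC class II genes summed to 1990 CPM in control 2 and to 271.6 CPM in the control library with the least.

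Of the 41 genes, 2 rose in treated livers and none fell: Gpt, which encodes the cytosolic alanine aminotransferase, and Bckdha, the E1 alpha subunit of the branched-chain ketoacid dehydrogenase. All 41 passed the filter on low counts. The test was edgeR's quasi-likelihood F test over 12861 genes with Benjamini-Hochberg adjustment at 0.05, and all adjusted p-values below come from it unless another fit is named. The 2 genes are 4.88% of the members, against 9.21% of all genes tested that were called in either direction, 5.46% called higher and 3.75% called lower. At an unadjusted p under 0.05 in this test the count was 9 of 41 members, against 3777 of the 12861 genes tested. The median log2 fold change (treated over control) was 0.088 over the 41 members, with 25 positive and 16 negative, and -0.037 over all genes tested. In 3 of the 41 every treated library lay above every control library and in 0 every treated library lay below, which makes 7.32%, against 18.9% of all genes tested with no overlap in either direction, 10.2% with treated above and 8.7% with treated below. These 3 were Gpt, Bckdha and Prodh2.

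**Figure D1:**
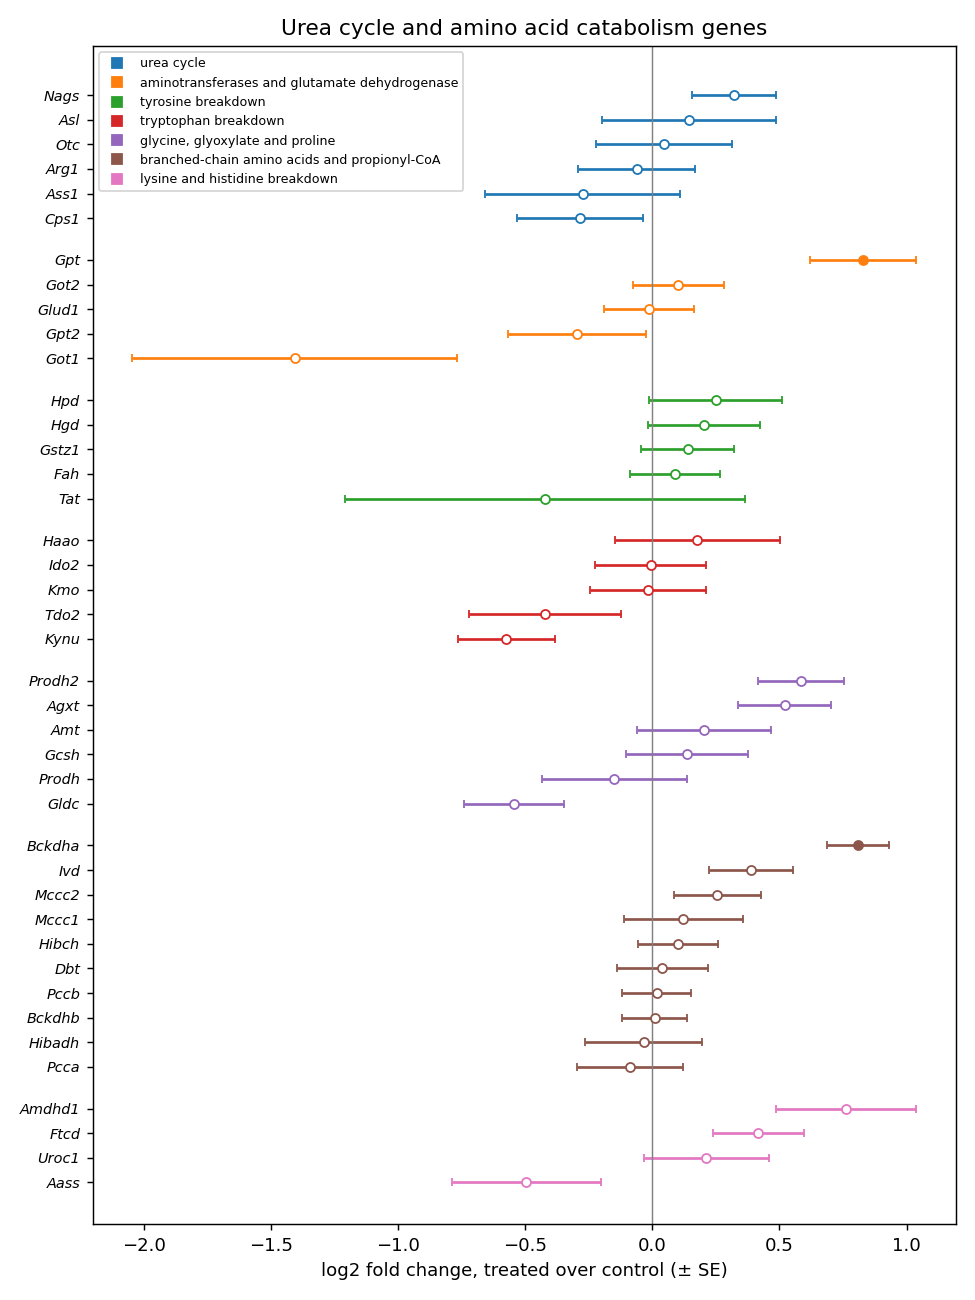
Log2 fold change (treated over control, horizontal axis) with its standard error for each of the 41 genes, grouped and coloured by role; filled points passed the test. Only Gpt at 0.83 and Bckdha at 0.81 are filled, and Got1 and Tat carry the longest error bars, 0.64 and 0.79 to each side.

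Of the 4 aminotransferases and glutamate dehydrogenase, only Gpt passed the test. Gpt (chromosome 15, 76695716 to 76699686, GRCm38) had 261.6, 283.9, 292.1 and 337.1 CPM in treated libraries 1 to 4, against 201.0, 110.1, 139.5 and 211.0 CPM in controls 1 to 4. The lowest treated library stood above the highest control, and the gene averaged 293.7 ± 31.7 CPM in treated and 165.4 ± 48.5 CPM in control livers (SD, n = 4 each; log2 fold change 0.83, SE 0.21, adjusted p = 0.0395). Its product is the alanine aminotransferase measured in serum as a sign of liver injury, and the values here are transcript levels in tissue.

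The call of Gpt was narrow. When each library was left out in turn, 2 of the 8 fits kept it, those without control 1 and without control 4, and the adjusted p of Gpt reached 0.106 in the others. With offsets for gene length and GC content the log2 fold change of Gpt was 0.56 (SE 0.20, adjusted p = 0.125).

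Gpt2, the mitochondrial alanine aminotransferase, had 321.6, 406.4, 368.4 and 368.2 CPM in treated libraries, against 726.5, 369.0, 261.6 and 443.2 CPM in controls (log2 fold change -0.30, SE 0.27, adjusted p = 0.496). Treated values of Gpt2 lay inside the control range, and without control 1 its log2 fold change was 0.034. Levels between genes were compared per length, as FPKM, which also divides by gene length. On this scale the Gpt to Gpt2 ratio was 1.56, 1.34, 1.52 and 1.76 in treated libraries, against 0.531, 0.573, 1.02 and 0.913 in controls, so the groups did not overlap. Gpt was the more abundant of the pair in every treated library and in 1 of the 4 controls.

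Got1, the cytosolic aspartate aminotransferase, showed the most negative fold change of the 41 without passing the test. It had 77.4, 71.1, 160.5 and 357.3 CPM in treated libraries 1 to 4, against 879.6, 288.6, 231.9 and 368.2 CPM in controls 1 to 4. Treated 1 to 3 lay below every control, while treated 4 lay above controls 2 and 3. The log2 fold change of Got1 was -1.41 (SE 0.64, adjusted p = 0.189). It was -0.83 without control 1 (adjusted p = 0.387) and -2.10 without treated 4 (adjusted p = 0.0812).

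Its mitochondrial partner Got2 averaged 412.7 ± 82.2 CPM in treated and 384.6 ± 56.2 CPM in control livers (log2 0.10, SE 0.18). The FPKM ratio of Got1 to Got2 ran from 0.408 to 1.46 in treated and from 1.08 to 5.24 in control libraries. Glud1, glutamate dehydrogenase, had the highest FPKM of these 5 genes and stood at 1400 ± 145 CPM in treated and 1414 ± 254 CPM in control livers (log2 fold change -0.014, SE 0.18, adjusted p = 0.969).

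**Figure D2:**
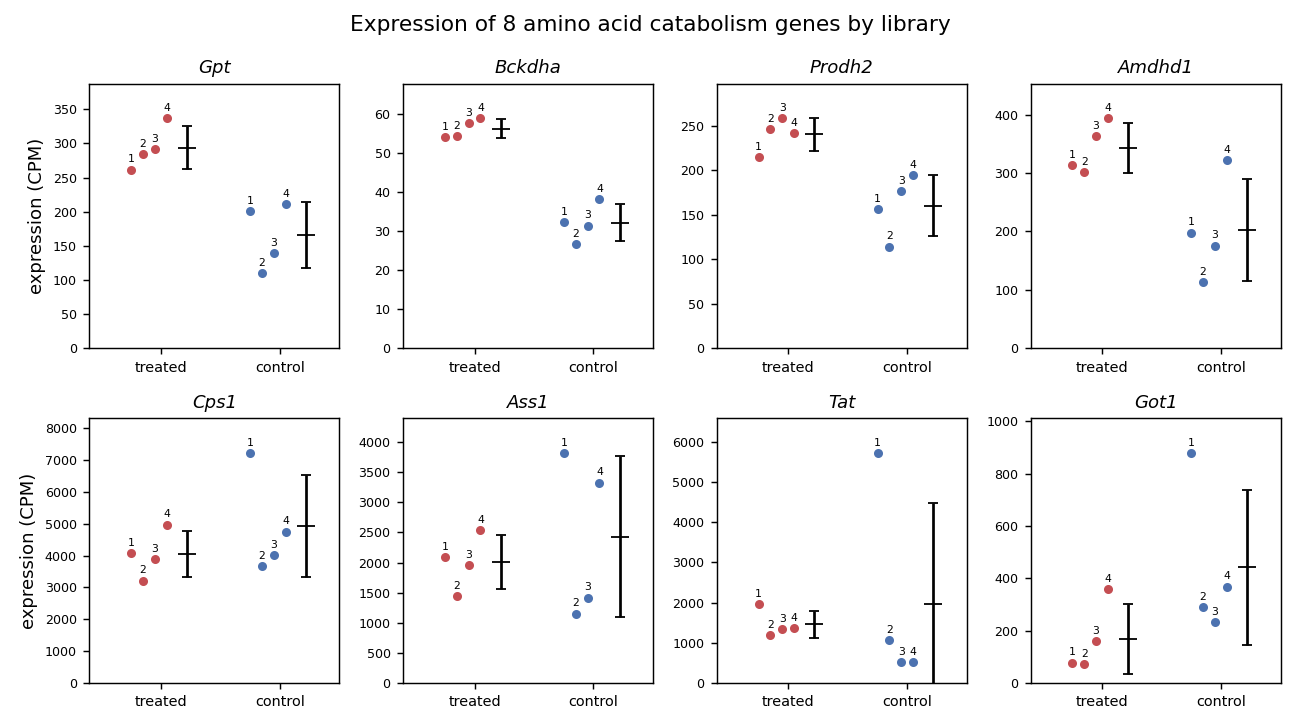
Expression (CPM, vertical axis from 0) of 8 genes in each library, numbered by replicate, with treated on the left and control on the right; bars give the mean ± SD of 4 libraries, and the lower bar of Tat in controls ends at the axis. Gpt, Bckdha and Prodh2 show no overlap between groups, while Cps1, Ass1, Tat and Got1 have control 1 as their highest library.

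In the branched-chain route only Bckdha, of 10 genes, passed the test. The E1 enzyme of branched-chain ketoacid dehydrogenase is built from alpha and beta chains encoded by Bckdha and Bckdhb, and Dbt encodes the E2 core. Bckdha (chromosome 7, 25629946 to 25658981, GRCm38) had 54.1, 54.3, 57.6 and 58.9 CPM in treated libraries, against 32.3, 26.6, 31.4 and 38.2 CPM in controls. All treated libraries lay well above all controls, with means of 56.2 ± 2.40 CPM in treated and 32.1 ± 4.75 CPM in control livers (SD, n = 4 each; log2 fold change 0.81, SE 0.12, adjusted p = 0.00827).

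Leaving out each library in turn kept the call of Bckdha in 8 of 8 fits, its log2 fold change running from 0.74 to 0.91. With length and GC offsets it stood at 0.54 (SE 0.11, adjusted p = 0.0328). Of the 15 fits with other settings, 14 kept the call of Bckdha. The call was lost with these offsets and a block for replicate number together (log2 0.55, adjusted p = 0.0506). On the opposite strand, B3gnt8 shares 61.7% of the exon bases of Bckdha, and no strand setting is given for the counting. That partner had between 10 and 22 counts per library, against 499 to 1082 counts for Bckdha, and was not called (adjusted p = 0.657).

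Bckdhb had 120.7, 114.3, 125.1 and 145.0 CPM in treated libraries, against 118.9, 112.1, 127.1 and 144.2 CPM in controls (log2 fold change 0.0082, SE 0.13, adjusted p = 0.974). Its values covered the same range in both groups, and it had the highest FPKM of the 10 genes of this route. The FPKM ratio of Bckdha to Bckdhb was 0.426, 0.452, 0.438 and 0.386 in treated libraries, against 0.258, 0.225, 0.235 and 0.252 in controls. This alpha to beta transcript ratio thus averaged 0.425 ± 0.028 in treated and 0.242 ± 0.015 in control livers with no overlap. How reads in the bases shared with B3gnt8 were counted is not stated, so the level of Bckdha relative to other genes, this ratio included, may be understated. The ratio of Dbt to Bckdhb, 0.517 ± 0.030 in treated and 0.506 ± 0.078 in control livers, overlapped.

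Downstream in the same route none of the other 7 genes passed the test. Ivd, isovaleryl-CoA dehydrogenase of leucine breakdown, averaged 198.7 ± 21.9 CPM in treated and 151.8 ± 30.9 CPM in control livers (log2 0.39, SE 0.17, adjusted p = 0.153). The chains of methylcrotonyl-CoA carboxylase, Mccc1 and Mccc2, stood at log2 fold changes of 0.12 (SE 0.24) and 0.26 (SE 0.17). Hibch and Hibadh, which act in valine breakdown, stood at 0.10 (SE 0.16) and -0.035 (SE 0.23). For propionyl-CoA carboxylase the values were -0.087 (SE 0.21) for Pcca and 0.017 (SE 0.14) for Pccb. Subunit ratios in FPKM overlapped between groups for both carboxylases, being 0.155 ± 0.022 in treated and 0.170 ± 0.024 in control livers for Mccc1 to Mccc2, and 0.222 ± 0.024 in treated and 0.236 ± 0.050 in control livers for Pcca to Pccb. Pcca shares 4.6% of its exon bases with Ggact on the other strand, a gene that itself rose (log2 0.80, SE 0.20, adjusted p = 0.0352). How reads in these shared bases were counted is not stated, so their effect on the Pcca value is not known.

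No gene of the urea cycle passed the test, and the 6 log2 fold changes ran from -0.29 to 0.32. Cps1, carbamoyl phosphate synthetase and the entry to the cycle, had 4068, 3218, 3892 and 4977 CPM in treated libraries, against 7232, 3675, 4023 and 4757 CPM in controls (log2 fold change -0.29, SE 0.25, adjusted p = 0.471). Only control 1 stood outside the treated range on the high side, and without it the log2 fold change of Cps1 was -0.038 (adjusted p = 0.915). Ass1, argininosuccinate synthase and the urea cycle gene of highest FPKM, had 2091, 1441, 1957 and 2544 CPM in treated libraries, against 3823, 1152, 1417 and 3328 CPM in controls (log2 fold change -0.27, SE 0.39, adjusted p = 0.670). Here controls 1 and 4 lay above and controls 2 and 3 below all treated libraries. Without control 1 the log2 fold change of Ass1 turned to 0.032 and that of Arg1 to 0.18, and without control 2 those of Otc and Asl turned to -0.12 and -0.0047.

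Arg1, the hepatic arginase that releases urea, stood at 1619 ± 280 CPM in treated and 1690 ± 510 CPM in control livers (log2 fold change -0.061, SE 0.23). Asl, argininosuccinate lyase, averaged 677.0 ± 222.6 CPM in treated and 612.6 ± 311.4 CPM in control livers (log2 0.14, SE 0.34), and Otc, ornithine transcarbamylase, 457.6 ± 44.9 CPM in treated and 443.3 ± 192.1 CPM in control livers (log2 0.046, SE 0.27). Nags makes the N-acetylglutamate that activates Cps1 and had the smallest adjusted p of the cycle, at 73.3 ± 11.6 CPM in treated and 58.8 ± 10.7 CPM in control livers (log2 0.32, SE 0.17, adjusted p = 0.229). With length and GC offsets Nags stood at 0.016 (adjusted p = 0.961). As a share of all counts the 6 genes held 0.879%, 0.712%, 0.834% and 1.06% in treated libraries, against 1.43%, 0.773%, 0.789% and 1.07% in controls. Those shares overlapped, with means of 0.870% ± 0.143 in treated and 1.02% ± 0.310 in control livers (SD, n = 4 each).

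Tyrosine breakdown began with the member of widest spread. Tat, tyrosine aminotransferase and a classic glucocorticoid-induced liver gene, had 1954, 1188, 1336 and 1356 CPM in treated libraries, against 5732, 1056, 520.0 and 512.8 CPM in controls. Control 1 stood 11.2-fold above control 4, and the treated libraries lay between control 1 and the other controls. With all libraries the log2 fold change of Tat was -0.42 (SE 0.79, adjusted p = 0.760), and without control 1 it was 1.07 (adjusted p = 0.0590). With all libraries kept, limma-voom (0.51) and limma on log2 FPKM (0.30) also gave Tat a positive value, so its direction depended on control 1 and on the model.

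Because Tat and Got1 were the members that differed most between libraries, the 250 bases before their RefSeq start sites are shown, on GRCm38.p6 and 5′ to 3′ along each gene. Capitals mark the CCAAT box, read as CCAAT or as ATTGG on the other strand. The Tat window is chr8:109990186-109990435 on the plus strand and the Got1 window chr19:43524606-43524855 on the minus strand, and neither overlaps an annotated exon.
Tat: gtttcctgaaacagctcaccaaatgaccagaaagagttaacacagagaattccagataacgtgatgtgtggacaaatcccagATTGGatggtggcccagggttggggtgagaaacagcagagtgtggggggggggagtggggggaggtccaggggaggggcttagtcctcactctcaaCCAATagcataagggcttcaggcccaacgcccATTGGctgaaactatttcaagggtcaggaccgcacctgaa
Got1: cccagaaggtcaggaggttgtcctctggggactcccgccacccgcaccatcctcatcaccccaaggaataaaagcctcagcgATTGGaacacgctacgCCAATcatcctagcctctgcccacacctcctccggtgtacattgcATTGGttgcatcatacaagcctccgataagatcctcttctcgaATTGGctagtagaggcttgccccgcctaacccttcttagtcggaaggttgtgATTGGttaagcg
CCAAT was found in 17 of the 34 members with a listed promoter, against 34.5% of 27025 promoters of the same length, with the first listed window counted for each gene. The cAMP response element half-site TGACG, the glucocorticoid receptor half-site TGTTCT, the TATA box TATAAA and the E-box CACGTG, searched on both strands, were in 3, 4, 4 and 2 of the 34, against 17.9%, 16.2%, 13.0% and 6.05% of all promoters, and these letters are in neither window shown. These matches describe the sequence and were not tied to the expression values.

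After Tat the tyrosine route varied less. Hpd, 4-hydroxyphenylpyruvate dioxygenase, had the highest mean FPKM of all 41 genes, 1168, and stood at 2723 ± 209 CPM in treated and 2292 ± 935 CPM in control livers (log2 fold change 0.25, SE 0.26, adjusted p = 0.557). Hgd, Gstz1 and Fah, which complete the route to fumarate and acetoacetate, had log2 fold changes of 0.20 (SE 0.22), 0.14 (SE 0.18) and 0.088 (SE 0.18). None of the 5 passed the test.

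In tryptophan breakdown none of 5 genes passed the test. Kynu, kynureninase, came closest, with 88.7, 99.8, 96.0 and 117.5 CPM in treated libraries, against 140.2, 99.6, 183.0 and 176.2 CPM in controls (log2 fold change -0.58, SE 0.19, adjusted p = 0.0853). Control 2 lay among the treated libraries and the other controls above them, and without control 2 Kynu was called lower (log2 -0.72, adjusted p = 0.0343). With length and GC offsets Kynu stood at -0.32 (adjusted p = 0.319). Tdo2, the hepatic tryptophan dioxygenase and the route's most abundant gene per length, had 1760, 1014, 1524 and 1332 CPM in treated libraries, against 3147, 1322, 1396 and 1685 CPM in controls (log2 fold change -0.42, SE 0.30, adjusted p = 0.371). Without control 1 the log2 fold change of Tdo2 was -0.059. Ido2, Kmo and Haao had log2 fold changes of -0.0065 (SE 0.22), -0.018 (SE 0.23) and 0.18 (SE 0.32).

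For glycine, glyoxylate and proline, 3 of 6 genes lay near the threshold and none passed it. Prodh2, a dehydrogenase of hydroxyproline, had 214.6, 246.4, 258.5 and 241.7 CPM in treated libraries, against 156.2, 114.2, 176.1 and 194.1 CPM in controls (log2 fold change 0.59, SE 0.17, adjusted p = 0.0561). The treated values of Prodh2 all exceeded the control values, and with length and GC offsets it stood at 0.32 (adjusted p = 0.267). Agxt, alanine-glyoxylate aminotransferase, averaged 349.4 ± 74.8 CPM in treated and 243.6 ± 35.2 CPM in control livers and had the highest FPKM of the 6 (log2 0.52, SE 0.18, adjusted p = 0.0972), and stood at 0.28 with the offsets (adjusted p = 0.308). Gldc, the decarboxylase of the glycine cleavage system, averaged 200.9 ± 44.7 CPM in treated and 292.7 ± 59.2 CPM in control livers (log2 -0.54, SE 0.20, adjusted p = 0.107). Its partners in that system, Amt and Gcsh, stood at log2 fold changes of 0.20 (SE 0.26) and 0.14 (SE 0.24), and the proline dehydrogenase Prodh at -0.15 (SE 0.29).

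Histidine breakdown held the largest positive fold change that did not pass. Amdhd1, imidazolonepropionase, had 313.1, 302.0, 363.1 and 394.1 CPM in treated libraries, against 197.8, 113.2, 175.6 and 322.3 CPM in controls (log2 fold change 0.76, SE 0.28, adjusted p = 0.107). Control 4 alone reached into the treated range, and without control 4 Amdhd1 was called higher (log2 1.08, adjusted p = 0.0102). Ftcd, which ends the histidine route at the folate pool, averaged 398.5 ± 48.5 CPM in treated and 298.4 ± 64.5 CPM in control livers (log2 0.42, SE 0.18, adjusted p = 0.154), and Uroc1, urocanase, had a log2 fold change of 0.21 (SE 0.25). Aass, the first enzyme of lysine breakdown, averaged 317.2 ± 93.2 CPM in treated and 447.4 ± 167.2 CPM in control livers (log2 -0.50, SE 0.29, adjusted p = 0.288).

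Without control 4 the called members were 7: Gpt, Agxt, Prodh2, Bckdha, Ftcd and Amdhd1 higher and Gldc lower. That is 17.1% of the 41, beside 17.8% of all genes called in the same fit. Without controls 2 and 4 together, Gpt, Bckdha, Amdhd1 (log2 0.88) and Kynu (-0.68) were called, 9.76% of the 41 beside 8.07% of all genes.

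**Figure D3:**
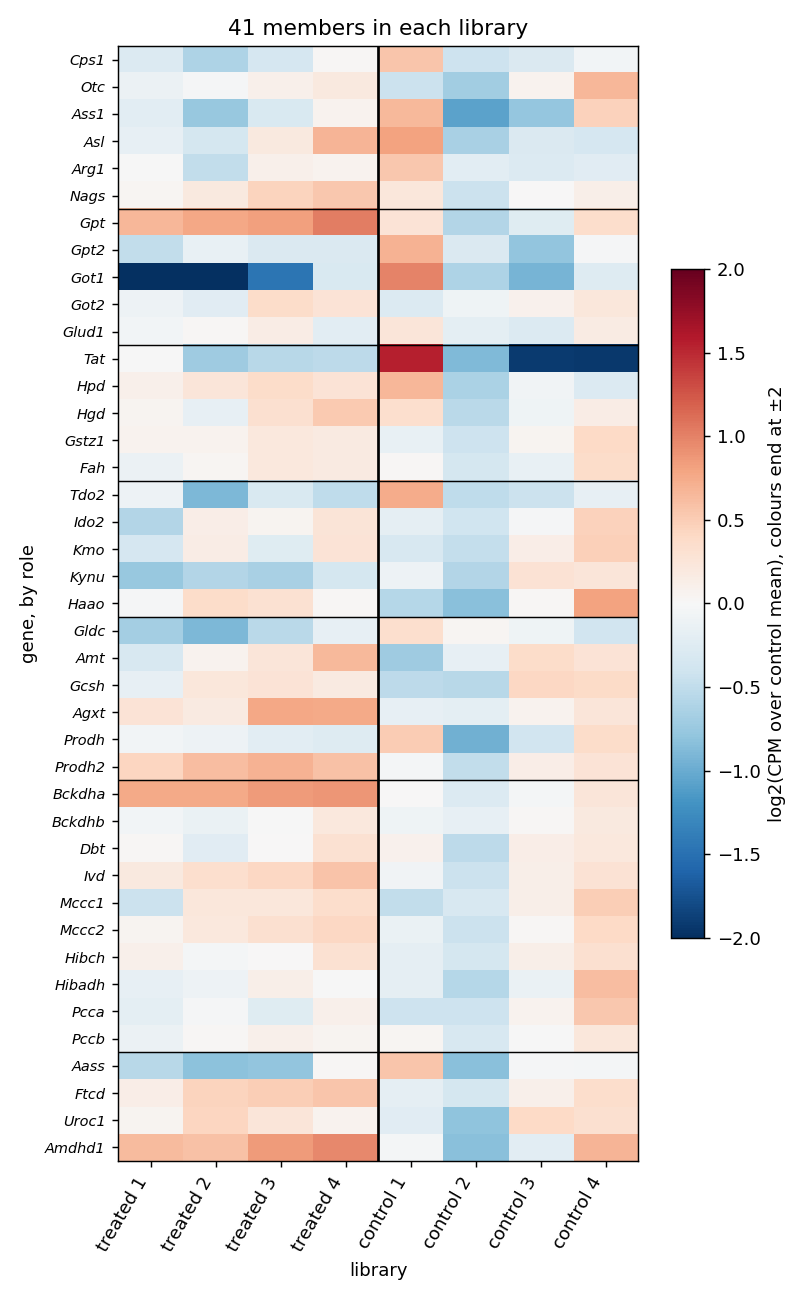
Each of the 41 genes (rows, by role) in each library (columns, treated left of the line, control right of it), coloured by log2 of its CPM over the control mean, with colours ending at ±2. Control 2 is pale to deep blue in most rows, control 1 is red in most urea cycle rows and in Tat, and control 4 is red in the branched-chain rows.

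The 41 genes varied more between the control libraries than between the treated ones. The coefficient of variation (CV, SD over mean of CPM) had a median over the genes of 12.6% in treated and 30.2% in control livers. It was wider in controls for 37 of 41 genes, or 90.2%, against 67.8% of all genes tested, where the medians were 15.4% in treated and 21.3% in control livers. The 4 exceptions were Got1, Got2, Gldc and Agxt. Bckdha had the smallest treated CV of the 41, 4.26%, against 14.8% in controls. This spread is a description with no test.

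**Figure D4:**
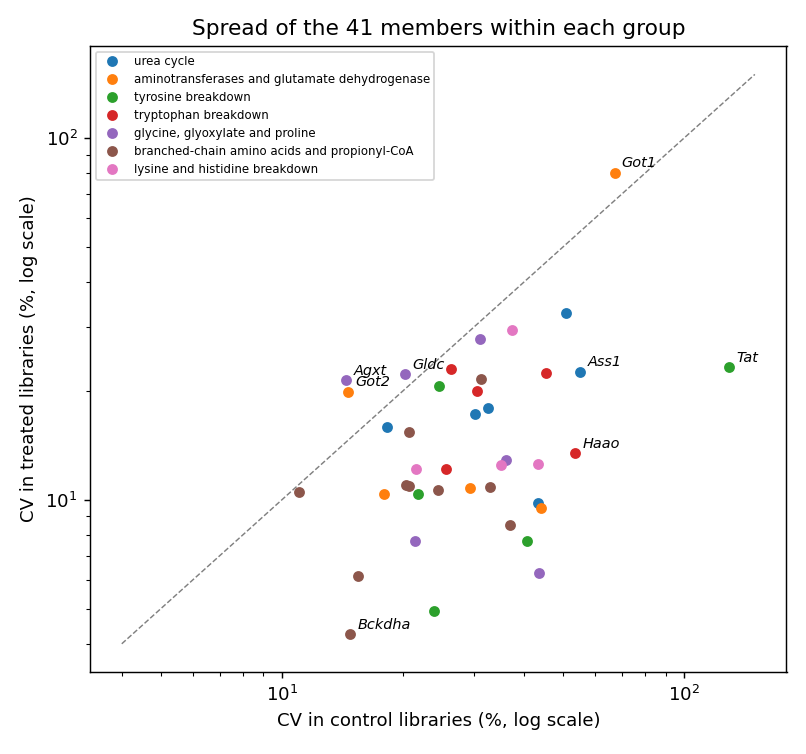
CV of CPM over 4 treated libraries (vertical axis) against that over 4 control libraries (horizontal axis), both in percent on log scales, for each of the 41 genes coloured by role; the dashed line marks equal spread. Of the points, 37 lie below the line, with Tat farthest to the right at 129% in controls and 23.2% in treated livers.

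Control 2 was the lowest of the 4 controls in 32 of 41 genes, 78.0%, against 23.5% of all genes tested, and was the highest in 0. Control 4 was the highest control in 22 genes (53.7%, against 30.2% of all genes tested), among them all 10 of the branched-chain route, and control 1 in 15 (36.6%, against 26.5%), among them Cps1, Ass1, Asl, Arg1, Nags, Got1, Gpt2, Tat, Tdo2, Hpd, Aass and Gldc. In the treated group, treated 1 or treated 2 was the lowest in 38 of 41 genes, 21 and 17 (51.2% and 41.5%, against 26.4% and 24.2% of all genes tested), and treated 4 the highest in 24 (58.5%, against 25.4%). The 41 genes together took 2.28%, 2.10%, 2.25% and 2.53% of all counts in treated libraries 1 to 4, against 3.55%, 1.92%, 2.01% and 2.50% in controls 1 to 4.

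Of 45 other tested enzymes of amino acid breakdown (48 listed), 4 rose and none fell, with a median log2 fold change of 0.22. Of all genes tested, 5.46% were called higher and 3.75% lower. Hoga1, an aldolase that ends hydroxyproline breakdown, averaged 177.4 ± 16.3 CPM in treated and 83.4 ± 16.2 CPM in control livers (log2 1.09, SE 0.15, adjusted p = 0.00667). Mcee, methylmalonyl-CoA epimerase of the propionate route, averaged 45.8 ± 5.55 CPM in treated and 24.1 ± 3.90 CPM in control livers (log2 0.92, SE 0.14, adjusted p = 0.00880). Auh, a hydratase of leucine breakdown, rose by 0.68 (SE 0.14, adjusted p = 0.0213), and Gcdh, glutaryl-CoA dehydrogenase of lysine and tryptophan breakdown, by 0.65 (SE 0.17, adjusted p = 0.0449). Of 8 fits that each lacked a library, Hoga1 and Mcee were called in 8, Auh in 5 and Gcdh in 1, and with length and GC offsets Gcdh was not called (log2 0.56, adjusted p = 0.0882).

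Synthesis of glutamine, asparagine, serine and proline gave no call among 6 tested of 9 genes. Glul, glutamine synthetase, averaged 724.1 ± 77.2 CPM in treated and 609.6 ± 63.5 CPM in control livers (log2 0.25, SE 0.15, adjusted p = 0.293), and Gls2, the liver glutaminase, 335.7 ± 43.0 CPM in treated and 261.0 ± 96.9 CPM in control livers (log2 0.36, SE 0.28, adjusted p = 0.413).

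Among 23 tested carriers of amino acids and urea cycle intermediates (26 listed), 3 fell and none rose, with a median log2 fold change of -0.16. Over all genes tested, 3.75% were called lower and 5.46% higher. Slc3a1, which pairs with a cystine and dibasic amino acid carrier in kidney and gut, averaged 26.7 ± 1.78 CPM in treated and 64.2 ± 21.1 CPM in control livers (log2 -1.26, SE 0.20, adjusted p = 0.00895) and kept its call whichever library was left out. Slc43a1, a carrier of large neutral amino acids, fell by 1.09 (SE 0.27, adjusted p = 0.0375), and Slc38a1, a glutamine carrier at 1.84 ± 0.44 CPM in treated and 5.56 ± 2.68 CPM in control livers, by 1.59 (SE 0.36, adjusted p = 0.0279). Each of these last calls held in 2 of the 8 fits that lacked a library, and both were lost with length and GC offsets (adjusted p = 0.0564 for Slc43a1 and 0.0517 for Slc38a1) at similar size, log2 -1.10 and -1.42.

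Of 16 listed regulators 3 rose and none fell, against 5.46% of all genes tested called higher and 3.75% called lower. The median log2 fold change of these regulators was 0.27. Sirt3, the mitochondrial deacylase whose known substrates include Otc and Glud1 proteins, averaged 63.8 ± 3.28 CPM in treated and 36.9 ± 4.69 CPM in control livers (log2 0.79, SE 0.12, adjusted p = 0.00799) and kept its call whichever library was left out. Cebpa, a transcription factor needed in mice for full Cps1 expression in liver, averaged 516.1 ± 86.2 CPM in treated and 275.7 ± 68.7 CPM in control livers (log2 0.90, SE 0.20, adjusted p = 0.0262). Gcgr, the glucagon receptor, averaged 212.9 ± 8.81 CPM in treated and 139.0 ± 29.2 CPM in control livers (log2 0.62, SE 0.16, adjusted p = 0.0409). With length and GC offsets Cebpa stood at 0.46 (adjusted p = 0.178) and Gcgr at 0.39 (adjusted p = 0.161), while Sirt3 stayed called at 0.91. Cebpa was called in 4 and Gcgr in 1 of the 8 fits that lacked a library. The amino acid response list of ATF4 targets gave no call among 12 tested of 15 genes, with Atf5 at 352.6 ± 134.1 CPM in treated and 298.9 ± 87.0 CPM in control livers and Cebpg at 69.7 ± 9.27 CPM in treated and 85.3 ± 9.02 CPM in control livers. Every treated library lay above every control for Atf4 itself, at 73.2 ± 4.36 CPM in treated and 53.98 ± 7.84 CPM in control livers (log2 0.44, SE 0.12, adjusted p = 0.0540). The same was so for Eif4ebp1, at 45.98 ± 1.38 CPM in treated and 28.4 ± 9.25 CPM in control livers (log2 0.69, SE 0.20, adjusted p = 0.0598). They were the only 2 of the 15 listed genes without overlap. Over all genes tested, 10.2% had every treated library above every control and 8.7% had every one below.

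Genes of feeding state, clock and other cell types moved in the same libraries, and their part in the values above was not tested. Beside the list counts below, 5.46% of all genes tested were called higher and 3.75% lower. Of 16 tested fasting and feeding genes 1 was called higher and none lower, Fbp1 of gluconeogenesis (log2 1.01, SE 0.19, adjusted p = 0.0142). The median log2 fold change of this list was -0.76, with 5 genes positive and 11 negative. Control 1, the highest control for Tat, Tdo2, Got1 and Cps1, also had the highest Ppargc1a, 45.9 CPM against 8.80 to 13.3 CPM in the other controls. Of 18 clock genes Per2 was called higher (1.16, SE 0.23). Arntl, Npas2 and Cry1 were called lower, with log2 fold changes of -2.38, -3.87 and -1.12. The median log2 fold change of the clock list was 0.63, with 13 genes positive and 5 negative. The calls of Arntl and Npas2 held in 8 and that of Per2 in 6 of the 8 fits that lacked a library. Among 11 periportal genes Aldh1b1 rose (1.11, SE 0.25) and Ctsc fell (-0.91, SE 0.20), and among 11 tested pericentral genes Rnf43 rose (0.93, SE 0.24). The calls of Cry1, Aldh1b1 and Rnf43 each held in 1 and that of Ctsc in 4 of the 8 fits that lacked a library, and all 4 were lost with length and GC offsets (adjusted p = 0.0605, 0.0684, 0.0878 and 0.0727).

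Of markers of other cells, 5 of 7 MHC class II genes and 3 of 13 macrophage markers were called lower, against 3.75% of all genes tested. The count was 3 of 6 for tested T and NK cell markers, 2 of 9 for sinusoidal endothelial and 0 of 9 for stellate cell markers. Log2 fold changes were negative for every tested gene of the first 4 lists and for 7 of 9 stellate cell markers. Their median was -0.30 for endothelial and -0.40 for stellate cell markers. None of the 12 hepatocyte, 4 B cell, 2 neutrophil, 3 cholangiocyte, 4 erythroid and 1 acinar marker tested was called. The summed CPM of MHC class II genes ran from 68.5 to 97.5 in treated and from 271.6 to 1990 in control libraries. For macrophage markers it ran from 457.5 to 892.9 in treated and from 672.4 to 1648 in control libraries. In bulk tissue, fewer cells of a type and less RNA per cell cannot be told apart. Adipocyte and kidney tubule markers stayed at or near 0 (at most 0.105 and 0.0525 CPM in sum), with Plin1, Cidea and Umod at 0 in every library. Pancreatic acinar markers summed to between 9.60 and 17.8 CPM in treated and between 5.84 and 57.4 CPM in control libraries.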

How the data were processed

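Liver RNA was extracted with Trizol, selected on poly-T beads and made into libraries with the NEBNext Ultra RNA kit, per the labels' protocols. The authors deposited raw read counts per gene and FPKM for 8 libraries. The deposited FPKM were checked to follow from those counts with 1 length per gene. HISAT2, HTSeq 0.13.5, DESeq2 1.32.0 and GRCm38 are listed, per the submitters' processing notes, with no role stated. For the annotation release and the strand setting, nothing is stated in those sources.

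The tests ran in edgeR 4.0.16 under R 4.3.3: filterByExpr (minimum count 10, total 15), TMM factors, robust quasi-likelihood F test, intercept and group. SE was derived from the F statistic. Alternatives used limma 3.58.1, DESeq2 1.42.0 and mgcv 1.9.3 for smooth length and GC offsets, with length from the FPKM and GC from GENCODE transcripts. Positions and exon overlaps came from GENCODE M21, which held 24540 of 24547 identifiers, and promoters from RefSeq (GRCm38.p6), which listed 34 of the 41 genes. The main fit did not pair libraries by the replicate numbers that the groups share.

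The 41 members, the lists and the tests were chosen with earlier results of these data known. Named are all called members, in each role the member of smallest adjusted p and of highest FPKM, and in each list up to 4 called genes or, with none, the 2 of highest mean CPM. The values of the other members are given to describe each route, and Igfbp1, Scd1, Ppargc1a, Atf4, Eif4ebp1, B3gnt8 and Ggact were chosen after their values were seen. Of the 302 genes on the lists 6 were not matched. Libraries held 15864399 to 20159132 counts.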

Additional observations from a re-analysis of the deposited data

Results flagged for a closer look

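In 3 genes control 1 lay apart from the other controls, its gap to the next library passing Dixon's critical value for 4 samples. Tat stood at 5732 CPM in control 1, against 512.8 to 1056 CPM in controls 2 to 4, a gap of 0.896 of the range. Arg1 was at 2453 CPM in control 1, against 1404 to 1452 CPM in the other controls, a gap of 0.954. Asl was at 1074 CPM in control 1, against 389.8 to 501.3 CPM in the others, a gap of 0.837. Chance flags about 1 in 20 groups, and 82 groups of 4 libraries were examined. No treated library passed the value in any of the 41 genes.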

How the results depend on the processing

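The number of all genes called, 1184, ran from 183 (without treated 3) to 2330 (without control 4) with a library left out, and was 2153 with the DESeq2 Wald test, 2126 with limma-voom, 787 with limma on log2(FPKM + 0.1), 754 on unfiltered log2(FPKM + 1), 569 with length and GC offsets and 350 with these and the replicate block. The number of members called, 2, ran from 1 to 7 with a library left out. It was 5 with the Wald test (Tat had no adjusted p) and 5 with limma-voom, where 1 was lower, 3 on filtered log2(FPKM + 1), 1 on the unfiltered values, 3 with the replicate block, 3 with no filter, 4 without controls 2 and 4, 1 with the offsets and 0 with offsets and block. Same-numbered libraries correlated at 0.177, 0.0589, -0.0124 and 0.0697 in their deviations from group means. Treated 1 and treated 2 each correlated best with the control of the same number. Treated 3 did so with control 4 (0.176) and treated 4 with control 3 (0.0967). With so few libraries these values cannot show whether the replicate numbers pair them. The fit with the block called 944 genes. Outside the fits with a library left out, members had 552 values of the same direction and call, 4 that lost and 11 that gained the call and 48 that changed sign. Causes were not tested.

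Sign changes were, in log2, as follows. With limma-voom: Ass1 0.089, Arg1 0.017, Glud1 0.089, Tat 0.51, Ido2 0.072, Kmo 0.014, Prodh 0.064, Hibadh 0.12. Without controls 2 and 4: Asl -0.21, Hpd -0.085, Ido2 0.098, Kmo 0.065, Dbt -0.062, Hibadh 0.13, Pcca 0.065. With no filter: Glud1 0.012, Ido2 0.017, Kmo 0.0028. With offsets: Glud1 0.043, Fah -0.072, Kmo 0.15, Bckdhb -0.075, Hibadh 0.29, Pcca 0.013, Pccb -0.044, Atf5 -0.20. With offsets and replicate block: Glud1 0.057, Tat 0.35, Fah -0.051, Kmo 0.17, Bckdhb -0.074, Hibadh 0.34, Pcca 0.064, Pccb -0.030, Atf5 -0.23. With limma on FPKM, in each of the 3 forms: Tat 0.30, Bckdhb -0.034, Pccb -0.014. With the replicate block: Tat 0.39, Kmo 0.0079, Hibadh 0.030. With library totals: Bckdhb -0.035, Pccb -0.020. With upper quartile factors: Bckdhb -0.0074. With a library left out the ranges were Otc -0.12 to 0.36, Ass1 -0.49 to 0.032, Asl -0.086 to 0.56, Arg1 -0.14 to 0.18, Gpt2 -0.49 to 0.034, Glud1 -0.096 to 0.079, Tat -0.74 to 1.07, Ido2 -0.11 to 0.19, Kmo -0.14 to 0.18, Haao -0.013 to 0.59, Gcsh -0.0011 to 0.30, Prodh -0.36 to 0.074, Bckdhb -0.062 to 0.084, Dbt -0.092 to 0.13, Mccc1 -0.0075 to 0.34, Hibadh -0.17 to 0.25, Pcca -0.20 to 0.15 and Pccb -0.066 to 0.11. Signs turned without control 1 for Otc, Ass1, Arg1, Gpt2, Glud1, Tat, Gcsh, Prodh, Bckdhb and Mccc1, without control 2 for Otc, Asl, Haao, Gcsh, Bckdhb, Dbt and Pccb, without control 3 for Kmo, and without control 4 for Glud1, Ido2, Kmo, Prodh, Hibadh and Pcca. Without treated 1 they turned for Glud1, Ido2, Kmo and Hibadh, without treated 2 for Arg1 and Hibadh, without treated 3 for Kmo and Pccb, and without treated 4 for Otc, Asl, Glud1, Bckdhb and Dbt.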
